A study of Mus musculus with 19 samples.

Results

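The machinery that copies and transcribes the mitochondrial genome was followed through 10 genes across 19 single mouse embryos. They are Tfam, Tfb1m, Tfb2m, Polrmt, Tefm, Mterf3, Polg, Polg2, Twnk and Ssbp1. The members were taken by gene symbol, and each symbol matched 1 row, giving 10 of the 53379 gene rows of the deposited table. All 10 passed the filter on low values (FPKM of 1 or more in at least 2 embryos).

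The embryos came from in vitro fertilisation of oocytes and sperm of B6D2F1 mice and were grown in KSOM medium at 37 °C under 5% CO2 until 96 hours after insemination. PolyA RNA of each embryo was sequenced separately. Both parents carried 1 deleted allele of Alyref (Alyref+/-) or of Gabpb1 (Gabpb1+/-), or both were wild type (WT). From the Alyref cross there were 5 morulae, of which 2 were Alyref KO (-/-) and 3 non-KO, and 3 blastocysts, all non-KO. From the Gabpb1 cross 3 morulae were labelled Gabpb1 KO (-/-), 2 morulae were non-KO, and 3 blastocysts were non-KO. WT parents gave 3 blastocysts. Non-KO embryos are WT or heterozygous, and the labels do not separate these. No blastocyst was labelled KO, so every KO comparison is among morulae. KO status was read by the submitters from missing reads over the deleted region in these same libraries. Eggs of heterozygous mothers can carry maternal mRNA and protein of the targeted gene into every embryo of a cross.

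Mammalian mitochondrial DNA is packed by TFAM, which also bends the promoter DNA so that the polymerase POLRMT can start with TFB2M. TEFM keeps POLRMT elongating, MTERF3 binds upstream of a promoter and lowers transcription, and TFB1M methylates the small ribosomal RNA. Copying is done by POLG with its accessory subunit POLG2, the helicase Twinkle (Twnk) and the single-strand binding protein SSBP1. All are encoded in the nucleus. GABP, made of the DNA-binding subunit GABPA and an activating subunit such as GABPB1, is a known regulator of nuclear genes for mitochondrial proteins, Tfam among them. ALYREF is an adaptor for mRNA export. In the preimplantation mouse embryo mitochondrial DNA is hardly replicated before the blastocyst stage, while its transcription is already under way.

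Because Gabpb1 was one of the targeted genes, the promoter sequences of the members were searched for the core of the GABP site, CCGGAAG or its reverse complement CTTCCGG. RefSeq windows (GRCm38.p6) from 250 bases before to 50 bases after each transcript start were used, and 9 of the 10 members, all but Mterf3, had one. The core occurred in 7 of these 9 genes, against 9.93% of the 27025 genes with a window. The members were chosen with known GABP targets among them, and the 27025 genes were not limited to expressed ones. The 2 shares are therefore no test of control by GABP. The windows are shown on the strand of the gene, 29 bases each, with the core in capitals.
Tfam, chr10:71238074-71238102, minus strand, core starting 47 bases before the start: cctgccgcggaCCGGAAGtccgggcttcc
Ssbp1, chr6:40471410-40471438, plus strand, 47 bases before: ggctccgtgcgCCGGAAGcgagccgctgg
Polg, chr7:79466294-79466322, minus strand, 38 bases before: gaggacctcacCCGGAAGtccctctgcac
Tefm, chr11:80142145-80142173, minus strand, 9 bases before: agcacacgaaaCCGGAAGttgaggaggaa
Polrmt, chr10:79746607-79746635, minus strand, 43 bases before: ccctaagagcgCTTCCGGcagtcgcagaa
Polg2, chr11:106779549-106779577, minus strand, 29 bases before: cgggtgacgctCTTCCGGgggcgtggtct
Twnk, chr19:45006437-45006465, plus strand, 110 bases before: ctaaccggtgaCTTCCGGttccggggttg
Twnk, chr19:45006481-45006509, plus strand, 66 bases before: ggagagttttgCTTCCGGagtcaccgcga
The core lay on the coding strand in Tfam, Ssbp1, Polg and Tefm and on the opposite strand in Polrmt, Polg2 and Twnk. Twnk held 2 matches. In GENCODE M21 the core of Tfam, Ssbp1, Polg and Tefm falls in an untranslated region of the gene itself, since some annotated transcripts start further upstream. The Polrmt and Polg2 cores lie outside annotated genes, and both Twnk cores lie in an intron of an M21 gene model that begins upstream of the one in the deposited table. The windows of Tfb1m and Tfb2m held no core. The NRF1 motif GCGCANGCG was found in 2 members, Tfb2m and Polrmt (7.03% of genes), and the Sp1 motif GGGCGG in 6 (38.2% of genes), each on either strand. Within Polrmt the NRF1 matches overlapped each other, as did the Sp1 matches of Polg, and no match overlapped a GABP core. These are letter matches, with no measurement of binding in the data.

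Coordinates are of build mm10, from the deposited table. Tfam spans chr10:71225464-71238280, Polrmt chr10:79736123-79746581, Tfb2m chr1:179528055-179546267, Tfb1m chr17:3519263-3557713, Tefm chr11:80136678-80142175 and Mterf3 chr13:66906968-66933088. Of the replication genes, Polg spans chr7:79446231-79466362, Polg2 chr11:106768253-106779537, Twnk chr19:45006558-45012762 and Ssbp1 chr6:40471352-40484700. Twnk and Ssbp1 lie on the plus strand and the others on the minus strand. Polg2 exons share 132 bases with Milr1 on the opposite strand.

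Total gene counts per embryo ranged from 7486125 to 31536282 (median 13633603), and ERCC spike-in took 0.501% to 1.95% of counts. Both ends of the ERCC range were labelled Gabpb1 KO morulae, the first at 0.501% and the second at 1.95%, with the third at 0.971%. Their controls were at 0.621% and 0.635%. The members had between 23 counts (Polg2) and 6082 counts (Ssbp1) in an embryo, and Tfam at least 223. Alyref was at 48.1 and 58.8 CPM, counts scaled to a common library size, in the Alyref KO morulae and at 211.5, 292.9 and 162.4 CPM in its non-KO controls (log2 fold change -2.06, SE 0.30, adjusted p 0.0227 with edgeR). Since KO status was read from missing reads in these same libraries, lower Alyref counts are no independent check of the label. The adjusted p of Alyref was 0.893 with ERCC scaling, 0.559 with only the compared groups fitted, 0.140 and 0.151 without the first or second KO embryo and 0.0655 without the first control, with the log2 fold change between -2.24 and -1.82 under each left-out embryo. Gabpb1 was not lower in the embryos labelled KO: it was at 78.7, 260.8 and 151.4 CPM there and at 94.4 and 83.8 CPM in the non-KO morulae (log2 fold change 0.88, SE 0.39, adjusted p 0.243). Counts per gene include exons outside a deletion, so Gabpb1 counts do not check the label, and "labelled Gabpb1 KO" is used throughout. Single embryos moved the number of genes that passed. Between blastocysts and morulae of the Alyref cross it went from 2402 to 4560 without the third non-KO morula and to 370 without the second, and in the Gabpb1 KO comparison from 303 to 966 without the first labelled KO embryo and to 48 without the second control. The labels name no batch. Since the crosses were fertilised separately, a difference between crosses and one between fertilisations cannot be told apart. P-values measure the spread between single embryos.

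Compared per length as FPKM, computed from the counts and the deposited exon lengths, the members formed 2 tiers. These are merged exon lengths of a gene, 1570 bases for Tefm, 8360 for Ssbp1 and 10742 for Polg, and the order depends on them. Without division by length, the median was 197.2 CPM for Ssbp1 and 45.4 CPM for Tefm. The median over 19 embryos was 28.8 FPKM for Tefm, 23.7 for Ssbp1, 14.8 for Tfam, 14.2 for Mterf3, 13.6 for Tfb1m and 10.4 for Tfb2m. It was 2.97 FPKM for Polrmt, 2.73 for Twnk, 1.72 for Polg2 and 1.46 for Polg. In this measure the polymerases, POLG's accessory subunit and the helicase lay in the lower tier. Tfam, Tefm, Mterf3, Tfb1m, Tfb2m and Ssbp1 lay in the upper one. The embryo ranges of neighbours overlapped at every step of this order except between Tfb2m (lowest embryo 7.71 FPKM) and Polrmt (highest embryo 5.85 FPKM). Only Tfam (lowest 3.50 FPKM) and Tfb1m (lowest 4.73 FPKM) of the upper tier reached down to the highest Polrmt value, each in labelled Gabpb1 KO embryos.

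**Figure D1:**
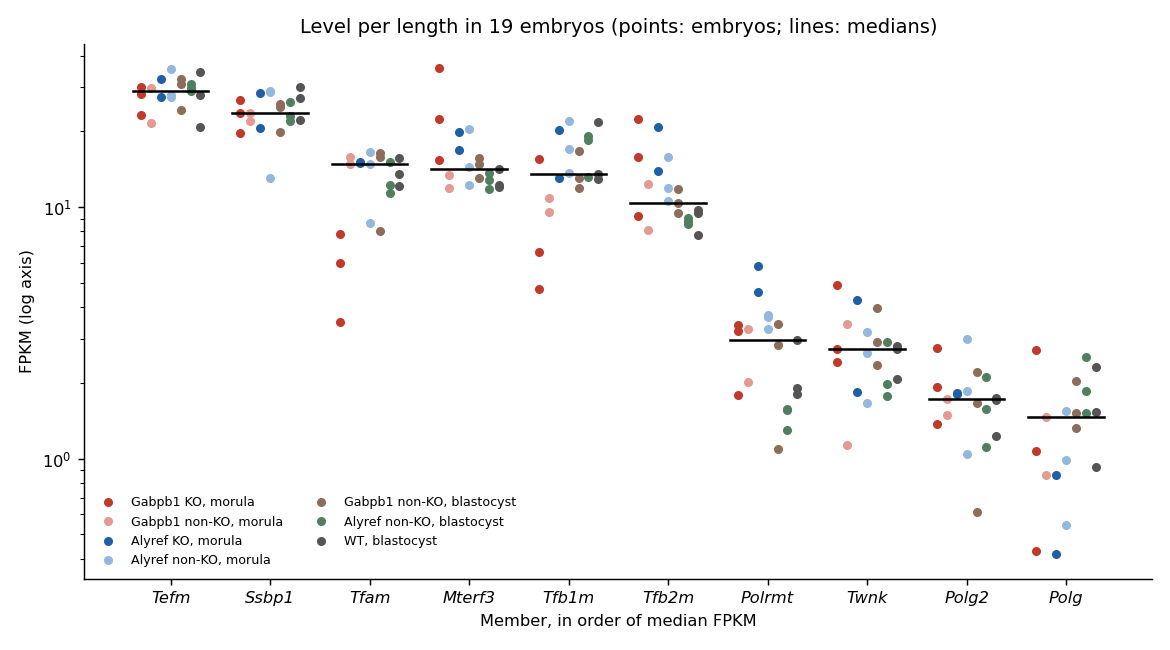
FPKM (log axis) of the 10 members in 19 embryos, with each point an embryo coloured by group and each line the median. The 6 genes on the left have medians of 10.4 or more and the 4 on the right 2.97 or less, and the 3 labelled Gabpb1 KO embryos are the lowest points of Tfam.

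The steadiest members across embryos were Ssbp1 (coefficient of variation of CPM 16.2%) and Tefm (17.0%). Tfam varied by 30.4%, and the most variable members were Polg (45.7%) and Polrmt (44.4%), which also have few counts. CPM are compared below only within a gene.

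The Gabpb1 comparison asked what differs in morulae labelled Gabpb1 KO against the other morulae of that cross. Tfam was the member with the lowest level there relative to the controls. It stood at 25.8, 36.4 and 15.9 CPM in the labelled Gabpb1 KO morulae and at 68.5 and 64.9 CPM in the non-KO morulae. The groups did not overlap, as for 16.4% of all genes with each labelled KO embryo below both controls. The third labelled KO embryo was the lowest of all 19. The labelled KO mean was 26.0 ± 10.2 CPM (SD, n = 3), the control mean 66.7 ± 2.49 CPM (SD, n = 2), and the fitted level 2.56-fold lower. The log2 fold change was -1.36 (SE 0.33) with p 0.000918 before adjustment. With edgeR's quasi-likelihood test and Benjamini-Hochberg adjustment over 18410 genes the adjusted p was 0.0510, so Tfam did not pass the threshold of 0.05. It ranked 329th of all genes by p. Of the 18410 genes, 303 passed (1.65%), with 239 of them lower (1.30%).

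The other 16 embryos show how Tfam varied without the label. It was at 66.0 and 68.3 CPM in Alyref KO morulae and at 69.1, 44.2 and 71.8 CPM in Alyref cross non-KO morulae. Blastocysts had 51.6, 67.3 and 50.8 CPM in the Alyref cross, 68.2, 36.7 and 71.5 CPM in the Gabpb1 cross and 50.5, 60.4 and 72.1 CPM from WT parents. The 3 labelled Gabpb1 KO morulae were thus the 3 lowest of 19, but the highest of them, at 36.4 CPM, lay next to the second Gabpb1 cross blastocyst at 36.7 CPM. Of all genes tested, 1.72% had each labelled Gabpb1 KO morula below the 16 other embryos.

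**Figure D2:**
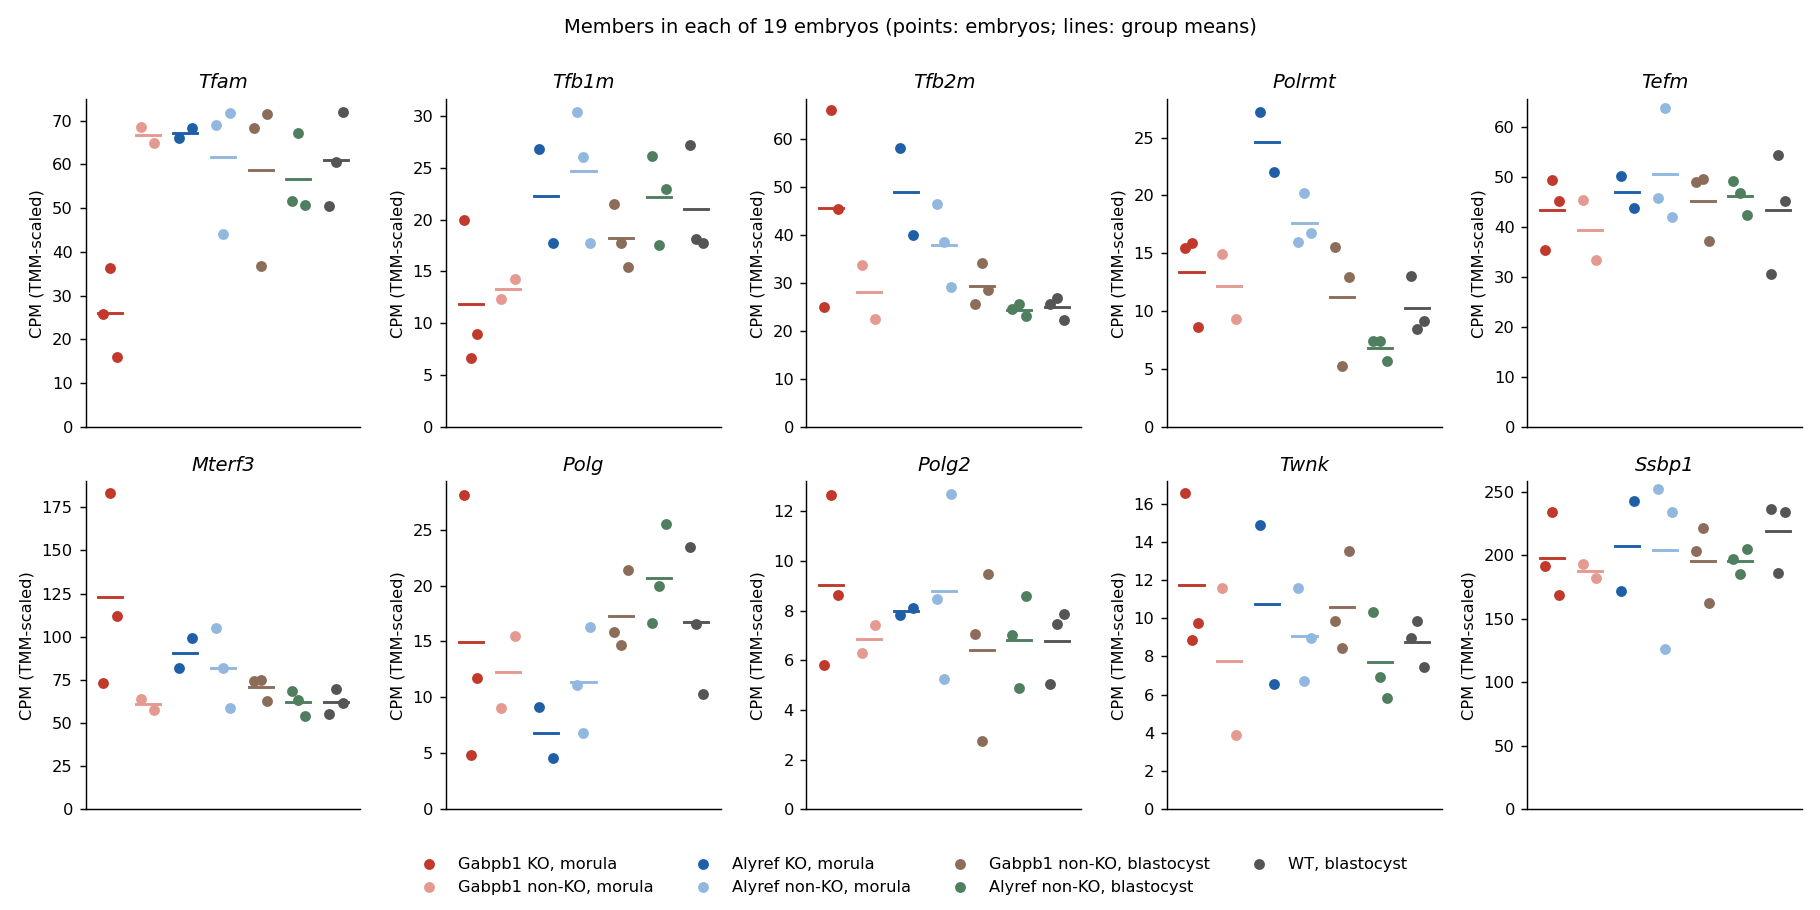
CPM of the 10 members in each embryo (points), by group (colours), with lines for group means; axes start at 0. Tfam shows 15.9 to 36.4 CPM in the labelled Gabpb1 KO morulae and 36.7 to 72.1 CPM elsewhere. Polrmt is at 22.0 and 27.2 CPM in Alyref KO morulae and at 5.72 to 7.46 CPM in Alyref cross blastocysts.

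Since the adjusted p lies at the threshold, the call of Tfam depended on the setting while its direction did not. Adjusted p-values were under 0.05 with the DESeq2 size factors in edgeR (0.0469), without a filter on low counts (0.0425), with a stricter filter (0.0335), with the DESeq2 test (0.00391), with limma voom and embryo weights (0.0359) and with non-KO morulae of both crosses as controls (0.0320). They were over it when only the compared groups were fitted (0.338) and with scaling on the ERCC spike-in (0.281). Leaving out single embryos gave log2 fold changes from -1.70, without the second labelled KO embryo (adjusted p 0.0391), to -1.12, without the third (adjusted p 0.117). Without the first labelled KO embryo the adjusted p was 0.0563, and without the first or the second non-KO morula 0.161 or 0.244. Scaling on ERCC moved the median of all genes to -0.41, and Tfam lay 1.51 below that shifted median. The ERCC share of counts ran from 0.501% to 1.95% within the labelled KO embryos themselves.

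**Figure D3:**
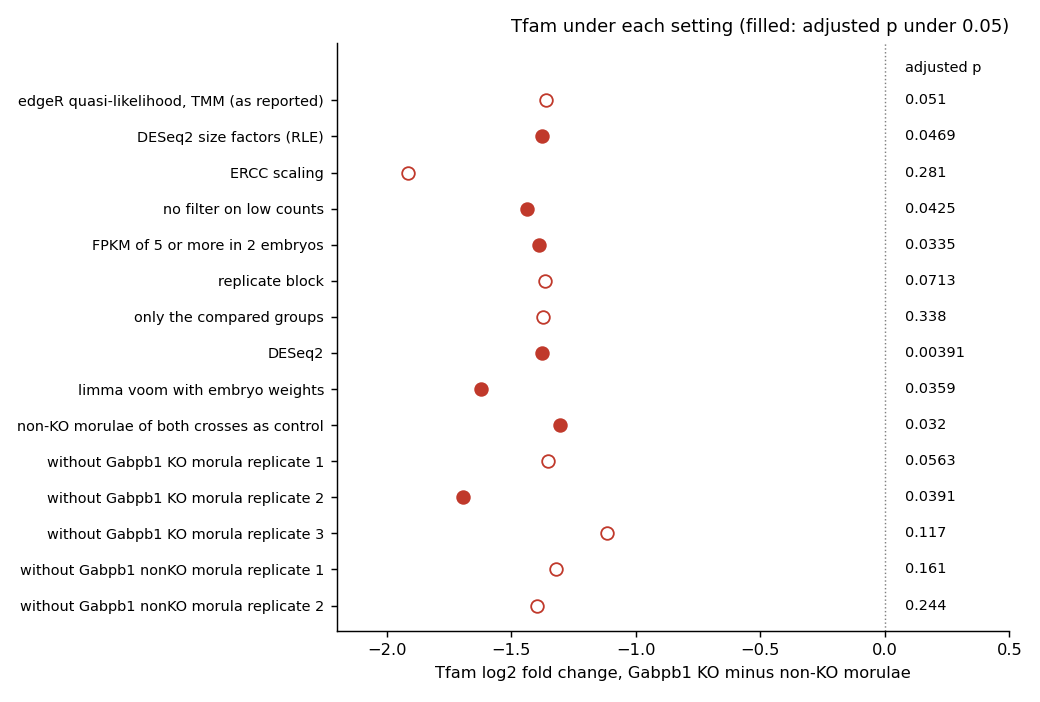
Log2 fold change of Tfam in labelled Gabpb1 KO against non-KO morulae under each setting, with the adjusted p at the right and filled points where it is under 0.05. Every point lies between -1.91 and -1.12, and filled and open points are mixed.

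None of the other members passed in this comparison, and 2 of the 10, Tfam and Mterf3, had an unadjusted p under 0.05, as did 18.9% of all genes. The median log2 fold change was 0.21 over the members and 0.06 over all genes, with 8 members above 0 and 2 below. With ERCC scaling Tfb2m, Polrmt, Tefm, Polg2 and Ssbp1 turned to negative values (-0.44 to -0.09), beside the shifted median of all genes of -0.41. DESeq2 called 2 members, Tfam and Mterf3, and 6.97% of all genes; voom called Tfam and 2.51% of all genes.

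Mterf3, whose protein lowers mitochondrial transcription, lay on the other side of 0 from Tfam. It was at 72.9, 183.5 and 112.1 CPM in the labelled Gabpb1 KO morulae and at 64.0 and 57.7 CPM in the non-KO morulae. These groups did not overlap either, and the second and the third labelled KO embryos were the 2 highest of the 19. Its log2 difference was 1.01 (SE 0.32, adjusted p 0.110), and it was 0.59 without the second labelled KO embryo (adjusted p 0.324). Without the first labelled KO embryo the adjusted p was 0.0224. With ERCC scaling Mterf3 was at 0.24 (adjusted p 0.942), 0.65 above the shifted median of all genes. Exons of Mterf3 share 229 bases with Ptdss1 and 33 with Gm10767 on the opposite strand, and the strand setting of the counting is not given in the sources used here, so a part of these counts may belong to those genes. Non-overlap of this kind was common: 16.4% of all genes were lower and 15.8% higher in each labelled KO embryo than in both controls.

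The partner of POLRMT at initiation, Tfb2m, was at 25.0, 66.0 and 45.4 CPM in the labelled Gabpb1 KO morulae and at 33.7 and 22.4 CPM in the non-KO morulae. The first labelled KO embryo lay among the controls and the other two above them. This gave a log2 difference of 0.70 (SE 0.34, adjusted p 0.283). Its relative Tfb1m was at 20.0, 6.61 and 8.99 CPM against 12.4 and 14.3 CPM. Here too the first labelled KO embryo differed from the other two, which were the lowest of all 19, and the difference was within the spread (-0.17, SE 0.40, adjusted p 0.856). Exons of Tfb1m share 135 bases with Tiam2 on the opposite strand.

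Polrmt, the mitochondrial RNA polymerase, was at 15.5, 15.9 and 8.63 CPM in the labelled Gabpb1 KO morulae and at 15.0 and 9.33 CPM in the controls, so the groups covered the same range (0.13, SE 0.40, adjusted p 0.890). The elongation factor Tefm was at 35.5, 49.5 and 45.3 CPM against 45.4 and 33.5 CPM. Its difference was 0.14 (SE 0.27, adjusted p 0.816), again within the spread.

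Among the replication factors Polg, the catalytic subunit, ranged most widely, with 28.1, 4.84 and 11.8 CPM in the labelled Gabpb1 KO morulae against 9.01 and 15.5 CPM. The first labelled KO embryo was the highest of all 19 and the second one the second lowest, and the difference was 0.28 (SE 0.58, adjusted p 0.828). Polg exons share 921 bases with Fanci, transcribed from the opposite strand. Its accessory subunit Polg2 was at 5.80, 12.7 and 8.63 CPM against 6.30 and 7.42 CPM (0.40, SE 0.49, adjusted p 0.691). Twnk, the helicase, was at 16.5, 8.84 and 9.77 CPM against 11.6 and 3.90 CPM (0.60, SE 0.48, adjusted p 0.520). Ssbp1, which coats single-stranded mitochondrial DNA, was at 191.7, 234.1 and 168.6 CPM against 192.8 and 181.7 CPM (0.08, SE 0.26, adjusted p 0.901), with full overlap. The intervals of plus or minus 2 SE reached from -0.44 to 0.60 for Ssbp1 and from -0.88 to 1.45 for Polg. Changes inside these intervals were not excluded for either gene. The intervals are not limits of detection, since a gene passed only with an adjusted p under 0.05. Tfam, at -1.36 with an SE of 0.33, missed this with an adjusted p of 0.0510 in edgeR. Of these 2 genes Polg had the larger SE, so a change had to be larger to pass for Polg than for Ssbp1.

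**Figure D4:**
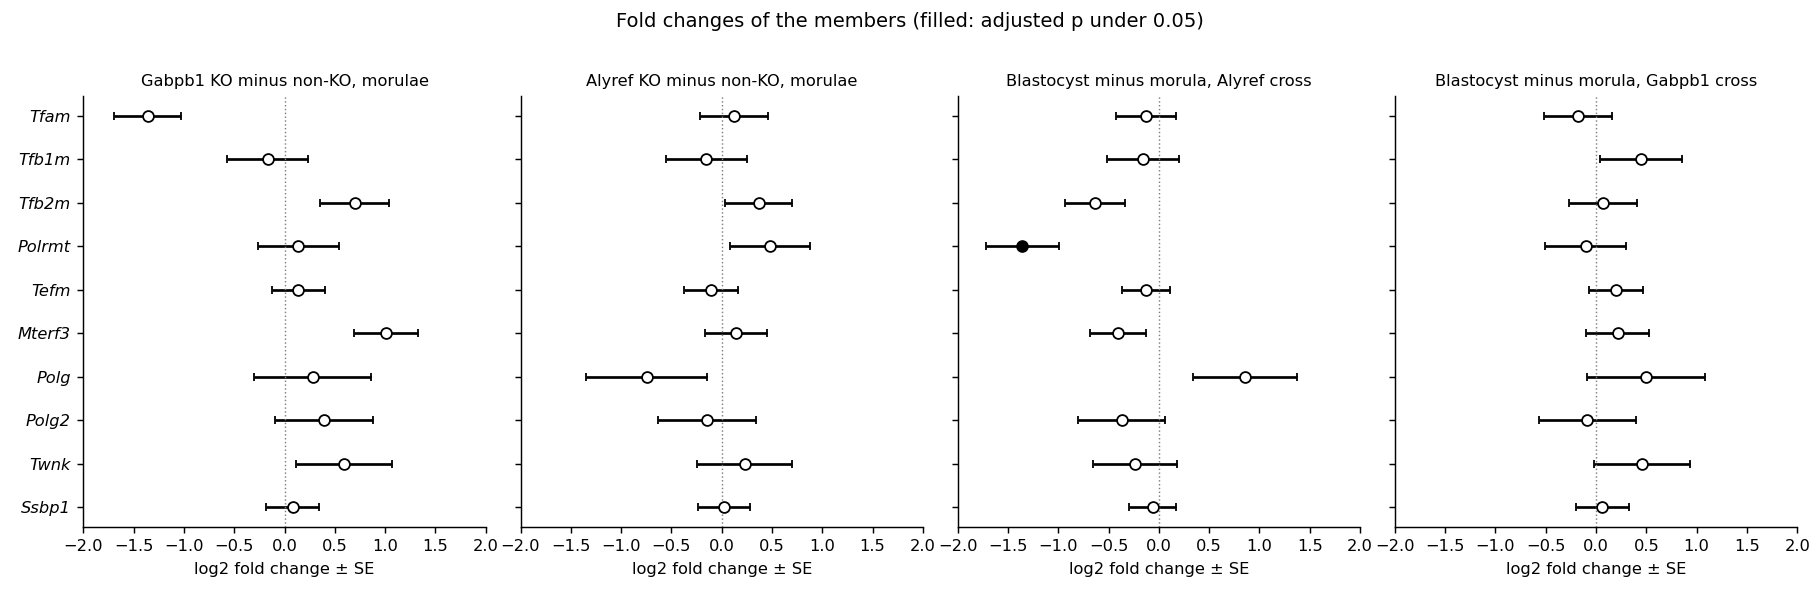
Log2 fold change ± SE of the 10 members in both KO comparisons and in both comparisons of blastocysts with morulae, with filled points at adjusted p under 0.05. The single filled point is Polrmt in the Alyref cross blastocysts at -1.36; Tfam in the labelled Gabpb1 KO morulae lies at the same value and is open.

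The summed level of 10 trophectoderm markers, genes of the outer cells of the blastocyst, was 386 to 2569 CPM in the labelled Gabpb1 KO morulae and 2613 to 4126 CPM in their controls, with none of the markers at 0, so these sums did not overlap. Of these 10, 9 had negative fold changes and none passed; 3 had an unadjusted p under 0.05. The trophectoderm sum was 657 to 1942 CPM in Alyref cross non-KO morulae, in which Tfam was at 44.2 to 71.8 CPM, and 4088 to 6800 CPM in all blastocysts. The summed level of 8 epiblast and pluripotency markers was 397 to 514 CPM against 217 to 406 CPM, and that of 6 primitive endoderm markers 274 to 730 CPM against 660 to 762 CPM; both of these overlapped. Whether these differences in stage or lineage take part in the Gabpb1 result was not tested. Cumulus cell markers summed to at most 0.832 CPM in any embryo, and 8 oocyte markers to 5.33 to 15.4 CPM in the labelled Gabpb1 KO morulae and 3.65 to 5.05 CPM in the controls. In whole embryos fewer cells of a type and less RNA per cell cannot be told apart.

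The genes around the members were read from 7 lists. No list had more than 1 gene that passed in the Gabpb1 comparison. Among 9 mitochondrial translation factors 1 passed, and it was lower: Tufm, the elongation factor that brings transfer RNA to the mitochondrial ribosome. It was at 43.8, 27.6 and 45.4 CPM in the labelled Gabpb1 KO morulae and at 95.4 and 102.5 CPM in the non-KO morulae, a log2 difference of -1.35 (SE 0.24, adjusted p 0.0126). The groups lay far apart, and elsewhere the lowest embryo was an Alyref KO morula at 67.6 CPM. Without the second non-KO morula the adjusted p was 0.114. The median of this list was -0.54 against 0.06 over all genes, and 5 of 9 had an unadjusted p under 0.05 (18.9% of all genes), each with a negative fold change.

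Of 9 genes for termination and ribosomal RNA modification 1 passed, and it was lower. Mrm2, a methyltransferase of the large mitochondrial ribosomal RNA, was at 11.3, 8.38 and 8.06 CPM against 18.3 and 32.4 CPM (log2 fold change -1.46, SE 0.35, adjusted p 0.0477). It is the weaker of the pair: its adjusted p was 0.0338 without the first labelled KO embryo, between 0.0510 and 0.394 without any other single embryo of the comparison, and 0.0613 with voom. Tufm and Mrm2 missed the threshold when only the compared groups were fitted (adjusted p 0.319 and 0.327) and with ERCC scaling (0.326 and 0.344), with log2 fold changes of 1.29 and 1.41 below the shifted median there.

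None of the genes of the other 5 lists passed in either KO comparison in the main edgeR fit (TMM scaling, all 19 embryos, controls of the same cross). Of 11 genes for replication and maintenance, 4 had an unadjusted p under 0.05 in the Gabpb1 comparison, where 18.9% of all genes did, with a list median of 0.33. Mgme1, an exonuclease that trims mitochondrial DNA ends, was at 1.01 (SE 0.41, adjusted p 0.200) and Fen1, a flap nuclease, at -0.97 (SE 0.46, adjusted p 0.273). Of 8 genes for nucleotide supply 3 had such a p (18.9% of all genes), each with a negative fold change, and the list median was 0.01. Mpv17, an inner membrane protein needed to keep mitochondrial DNA, was at -1.01 (SE 0.37, adjusted p 0.161), and Dguok, which phosphorylates deoxyguanosine, at -0.86 (SE 0.29, adjusted p 0.138). Dguok passed in 1 of 9 other settings and with 1 of the embryos left out, and was at -1.23 without the first labelled KO embryo.

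Of 20 tested genes for RNA processing and stability 4 had an unadjusted p under 0.05, close to the 18.9% of all genes, and the list median was -0.03. Fastkd1 was at 1.06 (SE 0.40, adjusted p 0.180) and Pnpt1, the mitochondrial polynucleotide phosphorylase, at -0.97 (SE 0.34, adjusted p 0.141). Among 9 tested regulators the median was 0.54. Gabpa, the DNA-binding partner of GABPB1, was at 241.9, 291.6 and 498.9 CPM in the labelled Gabpb1 KO morulae and at 181.5 and 129.9 CPM in the controls. Its groups did not overlap, as for 15.8% of all genes with each labelled KO embryo above both controls. Its adjusted p of 0.0518 just missed the threshold (log2 fold change 1.14, SE 0.29). This adjusted p was 0.0186 without the first labelled KO embryo and 0.00585 with DESeq2. Without the third labelled KO embryo Gabpa was at 0.76 (adjusted p 0.144), without the second control at 0.92 (adjusted p 0.374), and with ERCC scaling at 0.58 (adjusted p 0.784). The transcription factor Yy1 was at 1.25 (SE 0.37, adjusted p 0.0977), and it passed in 1 of 9 other settings.

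The summed level of transcripts of mitochondrial DNA itself was 54340, 34840 and 31160 CPM in the labelled Gabpb1 KO morulae and 40850 and 37400 CPM in the non-KO morulae. The first labelled KO embryo lay above both controls and the other two below them. Of 15 genes 13 were tested, since both ribosomal RNAs are listed at 0 counts. None of them passed in either KO comparison in the main edgeR fit. The median was 0.23 in the Gabpb1 comparison, with 9 genes above 0 and 4 below. mt-Nd2, a subunit of complex I, was at 3942, 4418 and 3265 CPM against 1919 and 1919 CPM (1.01, SE 0.26, adjusted p 0.0572). It passed with DESeq2 (adjusted p 0.00943), with the stricter filter (0.0465) and with controls of both crosses (0.0333), and with ERCC scaling it was at 0.53 (adjusted p 0.798). The cytochrome oxidase subunit mt-Co3 was at 4376, 1348 and 1279 CPM against 4550 and 4225 CPM (-0.91, SE 0.47, adjusted p 0.308). Without the first labelled KO embryo, which lay with the controls, mt-Co3 was at -1.74 (adjusted p 0.0223). Mitochondrial DNA copy number was not measured. In Alyref KO morulae no gene of the 7 lists passed, and the list medians lay between -0.26 and -0.04.

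In Alyref KO morulae none of the members passed, none had an unadjusted p under 0.05, and the smallest adjusted p was 0.681 (0.228% of all genes passed, and 12.1% had such an unadjusted p). DESeq2 and voom called no member either. The median was 0.07 over the members and -0.04 over all genes. Tfam was at 66.0 and 68.3 CPM in the KO morulae, inside the range of the 3 non-KO morulae, a log2 difference of 0.12 (SE 0.34, adjusted p 0.936). Its interval of plus or minus 2 SE ran from -0.55 to 0.79. The Gabpb1 cross value of -1.36 lies outside it but has an SE of its own (0.33), so the interval does not compare the 2 differences. The difference between the KO comparisons was itself tested: for Tfam it was -1.48 (SE 0.47, adjusted p 0.139), which did not pass (0.907% of all genes passed). DESeq2 gave 0.0434 for it and called 4.86% of all genes.

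Polrmt was the one member with both KO values on the same side of all controls, at 27.2 and 22.0 CPM in Alyref KO morulae and at 16.0, 20.2 and 16.7 CPM in non-KO morulae. These were the 2 highest values of all 19 embryos, yet the difference was only a little larger than its SE (0.48, SE 0.40, adjusted p 0.692). Of all genes 12.5% were higher and 12.3% lower in both KO morulae than in each control. Polg had the largest negative value, with 9.16 and 4.56 CPM against 11.1, 6.79 and 16.3 CPM (-0.75, SE 0.60, adjusted p 0.681), and its groups overlapped. Tfb2m was at 58.0 and 39.96 CPM in Alyref KO morulae and 46.4, 38.4 and 29.0 CPM in controls. Tfb1m was at 26.8 and 17.7 CPM against 30.4, 26.0 and 17.7 CPM. Mterf3 was at 82.0 and 99.0 CPM against 105.0, 82.1 and 58.8 CPM. In each of these the KO and control values overlapped.

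The remaining members showed the same overlap. Tefm was at 50.3 and 43.8 CPM in Alyref KO morulae and at 45.8, 64.0 and 42.1 CPM in controls. Ssbp1 was at 171.9 and 242.5 CPM against 251.8, 126.3 and 233.7 CPM. Polg2 was at 7.83 and 8.11 CPM against 8.46, 5.26 and 12.7 CPM. Twnk reached past both ends of its controls, at 14.9 and 6.57 CPM against 11.6, 6.70 and 8.98 CPM.

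Blastocysts were compared with morulae of the same age within each cross, and this gave the one member that passed. Polrmt was at 16.0, 20.2 and 16.7 CPM in Alyref cross non-KO morulae and at 7.46, 7.42 and 5.72 CPM in blastocysts. The level in blastocysts was 2.56-fold lower (log2 fold change -1.36, SE 0.36, adjusted p 0.0273). The groups did not overlap, as for 19.2% of all genes with each blastocyst below each morula. In this comparison 13.0% of all genes passed, so 1 of 10 members is near the share of all genes. The call was lost without the filter on low counts (adjusted p 0.0545), when only the compared groups were fitted (0.0529), with ERCC scaling (0.233) and without any single embryo other than the third morula (0.0596 to 0.106). In ERCC scaling the median of all genes was -0.34 and Polrmt lay 1.28 below it. WT blastocysts had 13.1, 8.50 and 9.19 CPM of Polrmt. Since morulae and blastocysts were of the same age, the morulae were the less advanced embryos, and the values are no time course. Stage and slower or halted development cannot be told apart in this comparison. The non-KO morulae of each cross were also the controls of its KO comparison, and whether they were delayed was not tested.

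Among the other members Tfb2m was likewise lower in each Alyref cross blastocyst, at 24.6, 25.6 and 23.1 CPM against 46.4, 38.4 and 29.0 CPM (-0.64, SE 0.30, adjusted p 0.161). Polg was higher in each, at 16.7, 19.97 and 25.5 CPM against 11.1, 6.79 and 16.3 CPM (0.86, SE 0.52, adjusted p 0.274). Neither passed in edgeR, and both passed with voom and embryo weights, as did Mterf3 and Polrmt; voom called 39.4% of all genes here, so 4 of 10 members is the share of all genes. Mterf3 was at 68.4, 63.2 and 54.0 CPM in these blastocysts (-0.40, SE 0.28, adjusted p 0.333). Of all genes 19.2% were lower and 19.7% higher in each blastocyst than in each morula. Tfam was at -0.13 (SE 0.30, adjusted p 0.811).

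In Alyref cross blastocysts Tfb1m was at 26.1, 17.6 and 22.9 CPM, Tefm at 49.3, 46.8 and 42.4 CPM and Ssbp1 at 197.2, 185.1 and 204.6 CPM. The same embryos had 7.04, 4.87 and 8.59 CPM of Polg2 and 10.3, 6.93 and 5.82 CPM of Twnk. These values overlapped those of the morulae of the cross given above.

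In the Gabpb1 cross none of the members passed between blastocysts and non-KO morulae (0% of all genes passed in edgeR; 1237 had an unadjusted p under 0.05, DESeq2 called 57 and voom 24). No member had an unadjusted p under 0.05 there. Polrmt was at 15.6, 5.24 and 12.98 CPM in the blastocysts, around the 15.0 and 9.33 CPM of the morulae, and the second blastocyst was the lowest embryo of all 19. Whether the stage difference of Polrmt differs between the crosses was not tested. Polg was at 15.8, 14.7 and 21.4 CPM, Tfb2m at 25.7, 34.1 and 28.5 CPM and Mterf3 at 74.6, 74.7 and 62.5 CPM. Tfb1m, at 21.5, 17.7 and 15.4 CPM, lay above both non-KO morulae of that cross, as did 11.4% of all genes. Log2 fold changes of the 10 members ran from -0.18 (Tfam) to 0.50 (Polg).

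The second Gabpb1 cross blastocyst had the lowest Polg2 of all 19 embryos, at 2.74 CPM, beside 7.04 and 9.46 CPM in the other two. It was also the blastocyst with the lowest Tfam. Its Twnk, at 8.46 CPM, was near the 9.85 and 13.5 CPM of the other two, and Ssbp1 was at 203.5, 221.4 and 162.3 CPM and Tefm at 49.0, 49.7 and 37.3 CPM in these embryos.

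The non-KO morulae of one cross were compared with those of the other as a background for the KO results. None of the members passed (1.85% of all genes did), and 8 of 10 had negative values in the Gabpb1 cross relative to the Alyref cross, with a median of -0.36 against -0.03 over all genes. Tfb1m was at 12.4 and 14.3 CPM in the Gabpb1 cross and at 30.4, 26.0 and 17.7 CPM in the Alyref cross (-0.89, SE 0.41, unadjusted p 0.0473, adjusted p 0.216). Voom called it, at adjusted p 0.0439, along with 14.7% of all genes. Tfb1m and Polrmt were lower in both Gabpb1 cross morulae than in each Alyref cross morula, as were 18.2% of all genes. For Tfb1m this places both controls of the Gabpb1 comparison in the lower part of the range of all embryos.

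Blastocysts from heterozygous parents were compared with those from WT parents. The former may include embryos that lack 1 allele of Alyref or Gabpb1, which the labels do not show. None of the members passed (0% of all genes passed in edgeR, 837 had an unadjusted p under 0.05, DESeq2 called 33 and voom 65). Log2 fold changes of the members ran from -0.22 (Polrmt) to 0.17 (Polg). In WT blastocysts Tfb1m was at 27.2, 18.1 and 17.7 CPM, Tfb2m at 25.6, 26.8 and 22.3 CPM and Mterf3 at 55.2, 70.0 and 61.9 CPM. Polg was at 23.5, 16.5 and 10.3 CPM, Polg2 at 5.05, 7.47 and 7.84 CPM and Twnk at 8.96, 9.85 and 7.44 CPM. Tefm was at 30.7, 54.5 and 45.2 CPM and Ssbp1 at 236.4, 185.7 and 234.1 CPM. For each gene the WT values overlapped those of the other blastocysts, and Tefm reached further in both directions.

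The genes whose level was most like that of Tfam over the 19 embryos were found by Pearson's r of log2(CPM + 1), among 8363 genes with a mean FPKM of 5 or more. Among the closest were Tinf2 (r 0.876), a subunit of the telomere-capping complex, Bloc1s6 (0.869), Wdr55 (0.856) and AC174678.2 (0.855). The embryos share groups, libraries and depth, and the low labelled Gabpb1 KO morulae enter each r. In the labelled Gabpb1 KO morulae Tinf2 averaged 23.3 ± 8.15 CPM (SD, n = 3), and in their controls 71.3 ± 7.40 CPM (SD, n = 2). After removing the 7 group means the closest genes were Gpr89 (0.927), Gm15954 (0.911), Bloc1s6 (0.897), Mrps15 (0.883) and Plpp2 (0.882), so Bloc1s6 was named both ways. Other members were not close to Tfam: r over the 19 embryos was 0.382 for Tfb1m, 0.213 for Ssbp1, -0.0094 for Tefm, -0.259 for Tfb2m and -0.424 for Mterf3. With the group means removed, the signs of Mterf3 (0.178) and Tfb1m (-0.269) turned. Ssbp1 was then at 0.355, Tfb2m at -0.00734 and Tefm at -0.137. Polrmt, Polg, Polg2 and Twnk have mean FPKM under 5 and were not compared.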

How the data were processed

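The authors deposited 1 table of 19 embryos whose name announces FPKM, but every value is whole, so the deposited values were treated as raw counts per gene; lengths are the deposited merged exon lengths in bases. Trimmomatic, Trim Galore, cutadapt, STAR, featureCounts and build mm10 are named in the submitters' processing notes, without versions. Of the 53379 gene identifiers, 50604 are in GENCODE M21 with the same span. The versions of the Tfb1m and Twnk identifiers are not among them.

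Genes with FPKM of 1 or more in at least 2 embryos were tested (18410) with edgeR 4.0.16 (R 4.3.3): TMM scaling over gene rows, 1 mean for each of 7 groups, quasi-likelihood F test, Benjamini-Hochberg adjustment over all genes tested in a comparison, threshold 0.05. CPM use the TMM-scaled library sizes. Each SE is the size of the log2 fold change over the square root of F. Alternatives were DESeq2 1.42.0, limma 3.58.1 (voom with embryo weights), other scalings and filters, the replicate number as a block, other sets of embryos in the fit, and leaving out each embryo. The labels make each embryo a separate sample, and counts after 16 PCR cycles without molecular identifiers are not independent molecules.

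The members and gene lists were chosen with earlier results of these data known. All members are named, as are list genes that passed in a KO comparison or, for a list with none, the 2 with the largest change in the Gabpb1 comparison at a mean FPKM of 5 or more. One gene that the rule on likeness to Tfam names is not reported here.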

Additional observations from a re-analysis of the deposited data

How the results depend on the processing

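Precision is limited by 2 or 3 embryos in a group and, for Polg, Polg2, Twnk and Polrmt, by few counts. Where leaving out an embryo left 1 in a group, it was assumed to vary like the other groups. Replicate numbers do not pair the embryos (correlations of deviations -0.156 to 0.168). With the replicate block Tfam was at -1.36 (adjusted p 0.0713), Mrm2 at adjusted p 0.0664, and 8 genes passed in the Alyref KO comparison. The causes of the changes below were not tested.

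The number of genes that passed in the Gabpb1 comparison was 26 with ERCC scaling, 0 with only the compared groups, 1284 with DESeq2 and 463 with voom; leaving out single embryos gave 48 (second control) to 966 (first labelled KO embryo). For Alyref KO it was 0 with ERCC scaling, 0 with only the compared groups, 502 with DESeq2, 841 with voom, 13 without a filter, 75 with FPKM of 5 or more and 262 with controls of both crosses; leaving out embryos gave 0 to 128 (the third control). The difference between the KO comparisons had 10 with ERCC scaling, 0, 894 with DESeq2 and 773 with voom (16, second Gabpb1 control, to 707, the third Alyref control, with embryos left out). Stage in the Alyref cross had 352, 24, 3762 and 7262 in that order (370, second morula, to 4560, the third morula), and in the Gabpb1 cross DESeq2 gave 57, voom 24 and left-out embryos 0 to 6. Between non-KO morulae the counts were 2, 0, 1709 and 2711 (0 to 2435, the third Alyref cross morula), and against WT blastocysts 8 without a filter, 1 with FPKM of 5 or more, 1 with only the compared groups, 33 with DESeq2, 65 with voom and 0 to 3 with embryos left out.

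Members passing in the Gabpb1 comparison numbered 1 (Tfam) with DESeq2 size factors (log2 fold change -1.375), without a filter (-1.437), with FPKM of 5 or more (-1.389), with voom (-1.623) and with controls of both crosses (-1.303), 2 with DESeq2 (Tfam at -1.376, and Mterf3), and 0 to 1 with embryos left out (Tfam -1.695 to -1.117). DESeq2 called 1 member (Tfam) in the difference between KO comparisons, and voom 1 (Tfb1m) between non-KO morulae. For stage in the Alyref cross, 0 members passed with ERCC scaling, without a filter, with FPKM of 5 or more (Polrmt was not tested there) and with only the compared groups, 4 with voom, and 0 to 1 with embryos left out.

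Signs turned in the Gabpb1 comparison, none with a passing p. With ERCC scaling Tfb2m was at -0.09184, Polrmt -0.3104, Tefm -0.4399, Polg2 -0.3264 and Ssbp1 -0.432. Voom gave -0.06593 for Polrmt and -0.08314 for Polg, and controls of both crosses -0.1341 for Polrmt and -0.04099 for Tefm. With embryos left out, Polg ran from -0.5575 to 0.726, Polrmt -0.1651 to 0.5145, Ssbp1 -0.06994 to 0.1682, Tefm -0.06484 to 0.3744 and Tfb1m -0.7717 to 0.09937. In Alyref KO morulae Tfam was at -0.01835 with ERCC scaling and -0.08121 to 0.2443 with embryos left out.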
